A study of Homo sapiens with 6 samples.

Results

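The GADD45 and PPP1R15 genes are 2 small families that cells switch on under stress, and all 5 of their members, GADD45A, GADD45B, GADD45G, PPP1R15A and PPP1R15B, were taken by symbol from the 23228 genes counted in HEC-1-A cells. HEC-1-A is an established human endometrial adenocarcinoma line. RNA was sequenced in 3 libraries of control cells and in 3 of cells given SMIP34, an inhibitor of the coregulator PELP1, at 20 µM for 24 h, all in McCoy's 5A medium with serum. The labels name only the medium for control cells, and the methods of the study name a vehicle. Every library comes from a single cell line, and no label says whether replicates were separate cultures, so p-values measure the spread between these libraries, which may be technical.

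GADD45 proteins are small acidic proteins without enzyme activity that bind kinases, cell cycle proteins and DNA repair proteins. They activate the kinase MAP3K4 upstream of p38 and JNK, and GADD45B can also block MAP2K7, the activator of JNK. PPP1R15A (also called GADD34) and PPP1R15B (also called CReP) are regulatory subunits that bring protein phosphatase 1 to the translation factor eIF2 and remove the phosphate that stress kinases put on its alpha subunit. PPP1R15A is known as the stress-induced form and PPP1R15B as the constitutive form. In these libraries GADD45B and PPP1R15A were the members with the widest gap between the nearest SMIP34 and control libraries, with 3.11-fold and 1.9-fold higher levels, while their paralogs GADD45A and PPP1R15B stood 1.17-fold and 1.14-fold higher. GADD45G was 2.43-fold higher at a level near the lower end of what the libraries could measure.

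The libraries held 19562711 to 22014835 counts on genes. Control replicate 1 had the fewest counts and the most genes with a count, 16881 against 15965 to 16100 in the other libraries. CPM are counts per 1000000 counts, scaled by the TMM factors of edgeR, except in the sums of cell type markers, which are unscaled. Epithelial markers (EPCAM, CDH1 and 4 keratins) summed to between 4450 and 4730 CPM in every library, the Müllerian epithelial markers PAX8 and SOX17 to between 302 and 323, and the estrogen and progesterone receptor genes had at most 1 count in any library. Summed markers were at most 5.07 CPM for fibroblasts, 0.716 CPM for endothelial cells and 1.81 CPM for leukocytes, among which CD3E was at 0. In bulk RNA such as this, fewer cells of a kind and less RNA per cell cannot be told apart. PELP1 mRNA, which encodes the protein that SMIP34 binds, was at 133, 146 and 138 CPM in control and 158, 159 and 151 CPM in SMIP34 libraries.

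The promoter sequences are shown because they let the PPP1R15 paralogs, of unlike response, be read side by side, along with GADD45B and GADD45G. RefSeq windows on GRCh38.p14 matched 4 of the 5 members, GADD45A not among them. Each line gives the 250 bases before the gene's start, 5′ to 3′ on the strand of the gene, and capitals mark the motif matches described after them.
GADD45B: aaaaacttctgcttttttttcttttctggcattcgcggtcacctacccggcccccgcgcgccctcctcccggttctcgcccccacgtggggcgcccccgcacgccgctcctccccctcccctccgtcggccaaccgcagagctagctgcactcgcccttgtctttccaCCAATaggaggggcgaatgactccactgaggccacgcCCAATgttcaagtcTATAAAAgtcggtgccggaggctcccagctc
GADD45G: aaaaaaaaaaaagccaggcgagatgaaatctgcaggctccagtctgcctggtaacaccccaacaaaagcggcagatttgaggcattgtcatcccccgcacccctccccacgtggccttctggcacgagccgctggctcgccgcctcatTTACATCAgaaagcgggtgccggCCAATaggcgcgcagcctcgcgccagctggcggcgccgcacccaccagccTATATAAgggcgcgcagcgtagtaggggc
PPP1R15A: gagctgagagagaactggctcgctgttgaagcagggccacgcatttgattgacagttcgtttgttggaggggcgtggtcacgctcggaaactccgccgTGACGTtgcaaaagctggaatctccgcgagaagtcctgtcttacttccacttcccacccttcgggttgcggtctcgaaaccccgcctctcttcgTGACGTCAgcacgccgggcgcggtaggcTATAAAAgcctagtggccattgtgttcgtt
PPP1R15B: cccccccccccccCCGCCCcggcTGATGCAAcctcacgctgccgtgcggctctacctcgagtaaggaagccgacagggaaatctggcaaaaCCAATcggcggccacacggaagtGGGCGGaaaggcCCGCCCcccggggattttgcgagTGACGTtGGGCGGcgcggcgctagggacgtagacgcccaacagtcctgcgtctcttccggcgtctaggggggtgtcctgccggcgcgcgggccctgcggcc
In the genome these windows lie at chr19:2475877-2476126 on the plus strand (GADD45B), chr9:89604762-89605011 on the plus strand (GADD45G), chr19:48872171-48872420 on the plus strand (PPP1R15A) and chr1:204411818-204412067 on the minus strand (PPP1R15B). The motifs were searched on both strands, and shares are of the 35116 RefSeq windows of the same length. A TATA box, searched as TATANAA, started 31 bases before the start of GADD45B, 29 before that of GADD45G and 30 before that of PPP1R15A, and PPP1R15B held none. It occurred in 8.41% of all windows, and this motif was added after the windows had been seen. The core of the cAMP response element, ACGTCA, which CREB and ATF proteins bind, was matched 3 times in PPP1R15A and 1 time in PPP1R15B, against 7.1% of all windows with any match. Of the matches in PPP1R15A, 1 on each strand overlap in a single palindrome that begins 58 bases before the start. TGATGNAA, the letters of the C/EBP-ATF response element (CARE) that ATF4 binds, was matched in PPP1R15B and in GADD45G and occurred in 3.14% of windows. CCAAT, the box of the factor NF-Y, was matched 2 times in GADD45B and 1 time each in GADD45G and PPP1R15B (32% of windows). The GC box GGGCGG was matched 4 times in PPP1R15B and occurred in 42.6% of windows. PPP1R15B was also the richest in G and C, at 70.8%, against 57.2% in PPP1R15A, 63.2% in GADD45B, 61.6% in GADD45G and a median of 58% over all windows. No match was found in the 4 windows for the AP-1 site TGANTCA, the NF-kB consensus or the CArG box of SRF, which occurred in 6.57%, 5.21% and 1.16% of windows. A match is a run of letters and was not tested as a binding site.

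On hg19, the build of the counts, the GADD45 genes share a compact plan of 4 exons. GADD45A runs from 68150860 to 68154021 on chromosome 1, GADD45B from 2476123 to 2478257 on chromosome 19 and GADD45G from 92219927 to 92221469 on chromosome 9. Their exons add up to 1380, 1375 and 1065 bases. PPP1R15A runs from 49375649 to 49379319 on chromosome 19 with 3 exons of 2383 bases in all, and PPP1R15B from 204372492 to 204380944 on chromosome 1 with 2 exons of 5275 bases in all. In the GENCODE annotation of GRCh37 no other gene overlapped GADD45A, GADD45B, GADD45G or PPP1R15A. PPP1R15B lies within an antisense non-coding gene, PPP1R15B-AS1, and another antisense non-coding gene, without a symbol, overlaps it by 452 bases. Neither was among the counted genes, and reads were counted by strand. Counts of the 5 genes were whole numbers in all libraries except 1 value each of GADD45A and PPP1R15B.

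GADD45B, which binds MAP3K4 and MAP2K7, was at 18, 18.3 and 18.3 CPM in control replicates 1, 2 and 3. In SMIP34 replicates 1, 2 and 3 it was at 57.0, 57.2 and 55.7 CPM. The groups lay far apart, the lowest SMIP34 library being 3.04 times the highest control. The log2 fold change was 1.64 (standard error 0.053), which ranked 22 among the 13408 genes tested when sorted from the largest increase. The control libraries differed by 1.03% (coefficient of variation), less than the 5.16% that counting error alone gives at this depth, so the spread of these 3 values is no guide to the precision.

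GADD45A, the founding member, which binds PCNA and the CDK1 kinase, was at 69.6, 67.6 and 62.5 CPM in control and at 78.3, 76.3 and 77.9 CPM in SMIP34 libraries. All treated libraries were above all controls, but the gap between the nearest libraries was small, a ratio of 1.1. The log2 fold change was 0.22 (standard error 0.042). The control libraries were spread by 5.54% and the treated ones by 1.36%, the latter below the 2.44% that counting error gives.

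GADD45G, the third paralog, was counted 13, 16 and 18 times in control libraries and 53, 28 and 40 times in SMIP34 libraries, which is 0.67 to 0.866 CPM and 1.29 to 2.42 CPM. The groups did not overlap, yet the treated libraries differed among themselves by 30.2%, more than the 15.7% that counting error gives. The control libraries differed by 13.2%, less than the 25.3% that counting error gives. The log2 fold change was 1.28 with a standard error of 0.29, the widest of the 5 genes. Without SMIP34 replicate 1, the library with the highest count, it was 1.05, and without SMIP34 replicate 2 it was 1.48.

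PPP1R15A, the stress-induced subunit of the eIF2 phosphatase, was at 131, 132 and 131 CPM in control and at 246, 246 and 257 CPM in SMIP34 libraries. The lowest treated library was 1.86 times the highest control. The log2 fold change was 0.93 (standard error 0.03), rank 76 of 13408. Its mean level was 118 CPM higher with SMIP34.

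PPP1R15B, the constitutive subunit, was at 70.3, 66.0 and 69.1 CPM in control and at 78.3, 78.3 and 77.1 CPM in SMIP34 libraries. The treated libraries were higher by a narrow margin, with a ratio of 1.1 between the nearest libraries. The log2 fold change was 0.19 (standard error 0.039), rank 1992 of 13408.

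In each of the 5 genes all 3 SMIP34 libraries lay above all 3 control libraries, as they did in 22.6% of all genes tested. Of all genes, 17.4% were called higher and 1.44% were called higher past the fold limit, and nothing is read from these shares for genes chosen on this contrast. Called means an edgeR quasi-likelihood p below 0.05 after Benjamini-Hochberg adjustment, and the fold limit is an absolute log2 fold change over 0.5, the limit in the study's methods. All adjusted p-values are from that test unless another tool is named. The 5 genes were chosen by family name with their counts in this contrast already known, that is, selected on the difference between SMIP34 and control libraries, so their differences are a description and are given with no test. Without control replicate 1, the library that stood apart in genes with a count, the log2 fold changes of GADD45A, GADD45B, GADD45G, PPP1R15A and PPP1R15B were 0.25, 1.63, 1.21, 0.92 and 0.21.

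**Figure D1:**
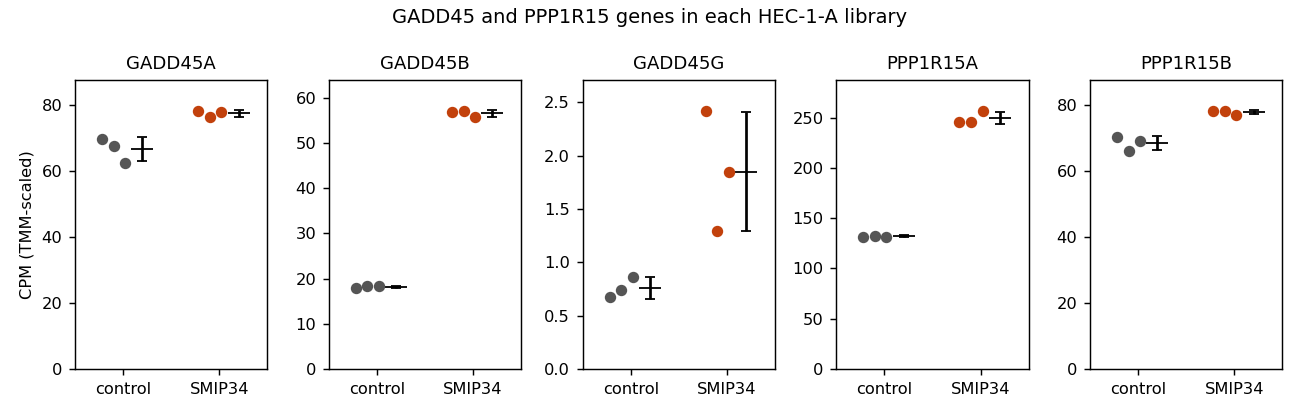
CPM (TMM-scaled counts per 1000000, linear axis from 0) of each gene in 3 control (grey) and 3 SMIP34 (orange) libraries of HEC-1-A cells, with the mean ± SD (n = 3) in black beside the points. GADD45B goes from 18.2 to 56.6 CPM and PPP1R15A from 132 to 250 CPM, while GADD45A and PPP1R15B move by 11 and 9.43 CPM.

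Levels of different genes were compared per kilobase of exon, since longer transcripts give more reads. By mean CPM per kb in control cells, the order was PPP1R15A (55.2), GADD45A (48.2), GADD45B (13.2), PPP1R15B (13.0) and GADD45G (0.711). The neighbours GADD45B (13.1 to 13.3) and PPP1R15B (12.5 to 13.3) overlapped between control libraries, and the other neighbours in this order did not. With SMIP34 the order was the same, at 105, 56.2, 41.2, 14.8 and 1.74 CPM per kb, and no neighbours overlapped. GADD45B thus stood level with PPP1R15B in control cells and well above it in treated cells. Among all genes tested, the control levels per kb of PPP1R15A and GADD45A were at the percentiles 87.4 and 85.8, those of GADD45B and PPP1R15B at 58.1 and 57.8, and that of GADD45G at 10.1.

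Within the GADD45 family the balance between GADD45A and GADD45B differed between the groups. The ratio of GADD45B to GADD45A, per kb and within a library, was 0.259, 0.271 and 0.295 in control and 0.73, 0.752 and 0.717 in SMIP34 replicates 1, 2 and 3. No control ratio came near a treated one. The difference between the log2 fold changes of these paralogs was 1.42. As a share of the family's summed level per kb, GADD45A made up 77.5 ± 1.25% (SD, n = 3) in control and 56.7 ± 0.453% (SD, n = 3) in SMIP34-treated cells, and GADD45B 21.3 ± 1.05% and 41.6 ± 0.727%. GADD45A remained the more abundant in every library. The summed level was 62.2 ± 2.47 CPM per kb in control and 99.1 ± 1.23 CPM per kb in treated cells, 1.59 times higher, and GADD45B supplied 75.7% of the difference, GADD45A 21.5% and GADD45G 2.79%.

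GADD45G made up 1.15% of the family in control and 1.75% in treated cells. The ratio of GADD45B to GADD45G was 20.8, 19.2 and 16.4 in control and 18.3, 34.2 and 23.3 in SMIP34 libraries, which overlapped, so a difference between these paralogs was not detectable at the depth of GADD45G. The difference of their log2 fold changes was 0.35, and it was 0.59 without SMIP34 replicate 1 and 0.15 without SMIP34 replicate 2.

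Within the PPP1R15 family the inducible member took a larger part. The ratio of PPP1R15A to PPP1R15B per kb was 4.13, 4.44 and 4.19 in control and 6.97, 6.95 and 7.38 in SMIP34 libraries, with no overlap. Their log2 fold changes differed by 0.74. PPP1R15A made up 81.0 ± 0.579% (SD, n = 3) of the family in control and 87.6 ± 0.365% (SD, n = 3) in treated cells. The summed level was 68.2 ± 0.188 CPM per kb (SD, n = 3) in control and 120 ± 2.47 CPM per kb (SD, n = 3) in treated cells, 1.75 times higher, and PPP1R15A supplied 96.5% of the difference and PPP1R15B 3.48%. The control libraries of PPP1R15A differed by 0.63%, less than the 1.92% that counting error gives, so the control SD is no guide to the precision.

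**Figure D2:**
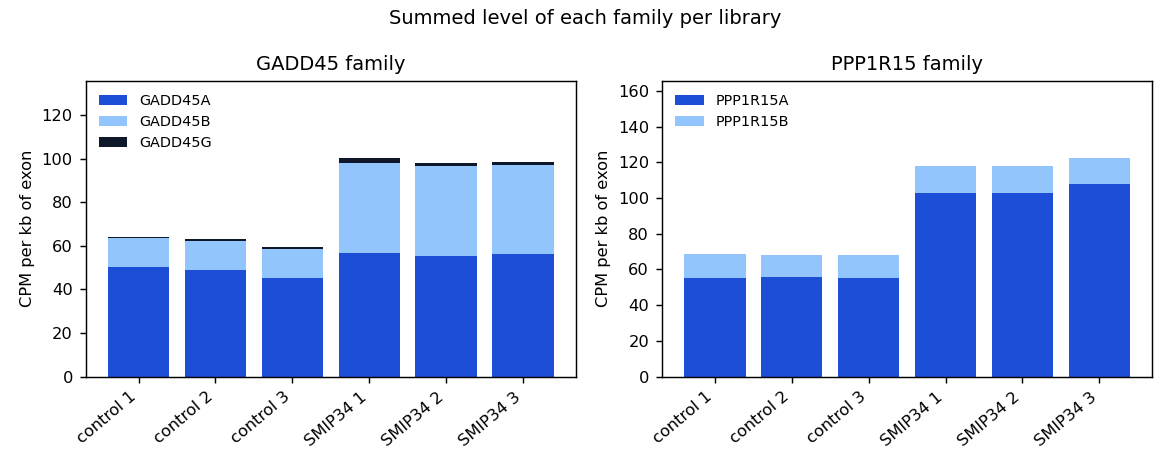
Level per kilobase of exon (CPM per kb, stacked, linear axis from 0) of the GADD45 paralogs (left) and the PPP1R15 paralogs (right) in each control and SMIP34 library. The GADD45 stack goes from about 62.2 to 99.1, mostly through GADD45B, and the PPP1R15 stack from 68.2 to 120 through PPP1R15A.

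The genes on either side of each member on the chromosome were compared in the same fit. Of these 10 neighbours, 2 were called in either direction, against 34.6% of all genes tested. Both flank GADD45B. LMNB2, which encodes lamin B2 and ends 19.2 kb before GADD45B, was at 380, 383 and 385 CPM in control and 404, 412 and 404 CPM in SMIP34 libraries, a log2 fold change of 0.088 (adjusted p = 0.00935). GNG7, a G protein subunit gene 33.0 kb after it, was lower, at a mean of 25.9 against 22.8 CPM, a log2 fold change of -0.19 (adjusted p = 0.0267). Neither came near the 1.64 of the gene between them, and their log2 fold changes have opposite signs. PPP1R15A lies 3.77 kb from PLEKHA4 and 24.0 kb from NUCB1, whose log2 fold changes were 0.012 (standard error 0.034) and -0.01 (standard error 0.027). The nearest tested neighbours of GADD45A, SERBP1 and GNG12, had values of 0.038 and -0.024. Those of PPP1R15B were -0.13 for PLEKHA6 and -0.044 for PIK3C2B, and those of GADD45G were -0.042 for SEMA4D and -0.26 for DIRAS2, the last at 1.09 CPM in control cells and 1150 kb away. GNG7 was not called in DESeq2 (adjusted p = 0.0781) or without any 1 of control replicates 1 and 2 and SMIP34 replicates 1 and 3 (edgeR adjusted p up to 0.128). LMNB2 was not called with offsets from gene length (edgeR adjusted p = 0.0861) or without SMIP34 replicate 2 (edgeR adjusted p = 0.0625). In turn PLEKHA6 was called lower with gene length offsets (-0.22, edgeR adjusted p = 0.000829) and without control replicate 1 (-0.19, edgeR adjusted p = 0.0135), and SEMA4D with gene length offsets (-0.12, edgeR adjusted p = 0.0228).

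**Figure D3:**
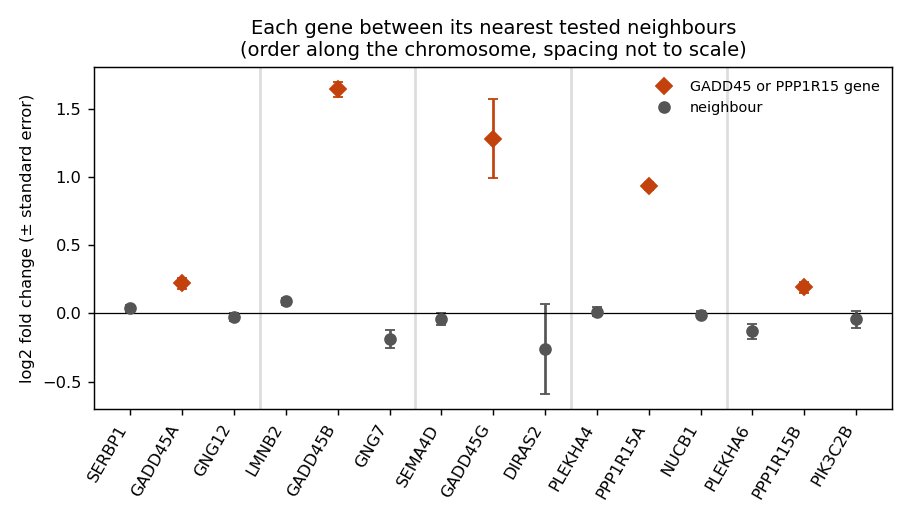
Log2 fold change with SMIP34 (vertical axis, ± standard error from edgeR) of each GADD45 or PPP1R15 gene (orange diamonds) and of its nearest tested neighbour on each side (grey circles), in chromosomal order and not to scale. The neighbours lie between -0.26 and 0.088, and GADD45B, GADD45G and PPP1R15A stand at 1.64, 1.28 and 0.93.

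The genes of eIF2, its kinases and its exchange factor, and those that share the phosphatase of the PPP1R15 proteins, differed by small amounts. Among the 4 eIF2 kinases, 3 were called higher and 0 lower (17.4% and 17.2% of all genes were called higher and lower), with a median log2 fold change of 0.24. EIF2AK3 (PERK, the kinase of endoplasmic reticulum stress) rose from 18.3, 17.5 and 18.5 to 22.8, 21.9 and 24.6 CPM, a log2 fold change of 0.36 (adjusted p = 0.000196). EIF2AK2 (PKR, which senses double-stranded RNA) and EIF2AK4 (GCN2, which senses lack of amino acids) rose by 0.29 and 0.20 on the log2 scale. EIF2AK1, the heme-regulated kinase, had a log2 fold change of -0.051 and was called lower only with gene length offsets (-0.088, edgeR adjusted p = 0.00683), of the 15 alternative fits. None of these kinases was past the fold limit. Among the 8 subunits of eIF2 and of its exchange factor eIF2B, 2 were higher, 2 were lower and 4 did not pass. EIF2S1, the alpha subunit that is phosphorylated, rose from a mean of 132 to 148 CPM (log2 fold change 0.17), and EIF2S2 fell from 212 to 186 CPM (log2 fold change -0.19). EIF2B1 (-0.13) and EIF2B5 (0.11) were not called in DESeq2, with adjusted p-values of 0.0536 and 0.107. EIF2B1 was also not called without control replicate 2 or SMIP34 replicate 3, or with gene length offsets (edgeR adjusted p up to 0.122). EIF2B5 was not called without control replicates 1 or 3 or SMIP34 replicates 2 or 3 (edgeR adjusted p up to 0.225). Nor was it called without the filter on low counts (edgeR adjusted p = 0.061) or with the replicate number as a block (edgeR adjusted p = 0.0523).

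Of the 3 catalytic subunits of protein phosphatase 1, PPP1CC was higher (log2 fold change 0.12), PPP1CA was lower (-0.11) and PPP1CB was at 0.041 without passing. Of all genes tested, 34.6% were called in either direction. PPP1CA was not called with gene length offsets (edgeR adjusted p = 0.154). Of the 28 other genes named as PPP1R regulatory subunits, 21 had enough counts to be tested. Among them 4 were called higher, 2 lower and 15 not at all, a share of 28.6% called against 34.6% of all genes tested. Their median was -0.0027 against -0.0022 over all genes tested. None of these 21 was called past the fold limit in this fit. The highest were PPP1R14C, an inhibitor subunit (log2 fold change 0.29), and PPP1R1C (0.20, not passed), and PPP1R1A, known as inhibitor 1, was lowest of those called (-0.36). Without SMIP34 replicate 2 the list had 2 genes called higher, PPP1R14C not among them (edgeR adjusted p = 0.108). PPP1R14C was also not called in DESeq2 (adjusted p = 0.0648) or without control replicate 3 (edgeR adjusted p = 0.15). PPP1R1A was not called without control replicate 1 (edgeR adjusted p = 0.0729). PPP1R10 was at -0.94 without passing, from 0.979, 3.31 and 0.722 CPM in control libraries, and it is annotated at 7 places, chromosome 6 and its alternative haplotypes, so that its count is uncertain. Without control replicate 2, where it was highest, it stood at 0.073, and without control replicates 1 or 3 at -1.19 or -1.31, where it was called lower past the fold limit (adjusted p = 0.0316 and 0.0052), as it was with gene length offsets (-1.21, adjusted p = 0.0162). By these values PPP1R15A, at 0.93, stood outside the range of the other regulatory subunits, and PPP1R15B, at 0.19, within it. Both were chosen with their values in this contrast known, so their places are a description and were not tested.

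ATF4 and CHOP (the product of DDIT3) are transcription factors of the integrated stress response, and PPP1R15A is known as a target of both. In a list of these factors and 17 of their known target genes, 18 of the 19 were tested, and 3 of them were called higher and 12 lower, against 17.2% of all genes called lower. The median log2 fold change was -0.36. ATF4 itself fell from 384, 385 and 378 to 304, 293 and 291 CPM, a log2 fold change of -0.37 (adjusted p = 4.72e-11). DDIT3 fell from 42.2, 39.3 and 37.7 to 32.9, 32.2 and 36.9 CPM, a log2 fold change of -0.22 (adjusted p = 0.00351). Every SMIP34 library was below every control library for both factors, as in 21.9% of all genes tested. For DDIT3 the margin was narrow, 36.9 against 37.7 CPM in the nearest libraries. These are mRNA levels at 24 h, and the protein and activity of ATF4 and CHOP were not measured in these libraries.

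Past the fold limit, 5 genes of the list were called lower, against 1.87% of all genes. CHAC1, a glutathione-degrading enzyme, fell most, from 15.5, 14.4 and 14.2 to 7.47, 5.50 and 6.47 CPM, a log2 fold change of -1.18 (adjusted p = 1.27e-09). NUPR1, a stress-induced nuclear protein, was at -0.85, and the cystine transporter SLC7A11 at -0.66. SLC7A5, which carries large neutral amino acids, was at -0.60 and the pseudokinase TRIB3 at -0.53. The serine and asparagine synthesis genes PSAT1 (-0.48) and ASNS (-0.40) also fell. ATF3 was the 1 gene of the list past the fold limit in the other direction, from 7.26, 7.45 and 8.76 to 24.2, 26.5 and 24.5 CPM, a log2 fold change of 1.68. ERO1L, an oxidase of the endoplasmic reticulum, rose by 0.38 and SLC3A2, the partner chain of SLC7A5, by 0.092 on the log2 scale. PPP1R15A and PPP1R15B were higher in each treated library, as were 22.6% of all genes tested. Their log2 fold changes had the sign of the 3 genes that rose and not of the 12 that fell. Both were chosen with their values in this contrast known, so their places are a description and were not tested. The count of 12 was the same in all 15 alternative fits, and the count of 3 in all but the fit without SMIP34 replicate 2, where SLC3A2 was not called (adjusted p = 0.0683).

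**Figure D4:**
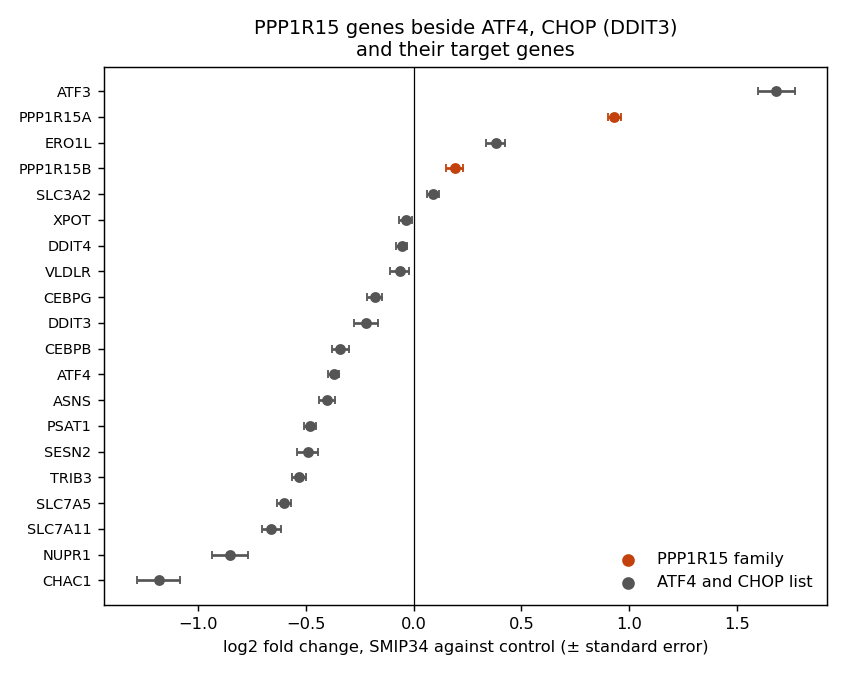
Log2 fold change with SMIP34 (horizontal axis, ± standard error from edgeR) of PPP1R15A and PPP1R15B (orange) and of the 18 tested genes of the ATF4 and CHOP list (grey), sorted. PPP1R15A at 0.93 lies between ATF3 at 1.68 and ERO1L at 0.38, and CHAC1 at -1.18 is lowest.

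The kinases downstream of the GADD45 proteins differed little in mRNA level. Of 12 genes of the p38 and JNK cascade, 3 were called higher, 1 lower and 8 not at all, a share of 33.3% called against 34.6% of all genes tested, with a median log2 fold change of 0.056 and none past the fold limit. MAP2K3, which activates p38, rose from 147, 149 and 151 to 176, 178 and 178 CPM, a log2 fold change of 0.25 (adjusted p = 3.02e-07). MAP3K4, the kinase that GADD45 proteins bind and activate, rose by 0.15 and MAPK9 (JNK2) by 0.14 on the log2 scale. MAP2K7, which GADD45B can block, had a log2 fold change of 0.024 without passing. MAP2K6 was lower (-0.20), a call lost in DESeq2 (adjusted p = 0.0759) and with gene length offsets (edgeR adjusted p = 0.0921). This call was also lost without any 1 of control replicates 2 and 3 and SMIP34 replicates 1 and 3 (edgeR adjusted p up to 0.156). MAPK10, the neuronal JNK3, was lowest at -0.83 without passing (adjusted p = 0.0529; 0.047 in voom and 0.0474 with gene length offsets), at under 1.1 CPM in all libraries, and MAPK11 was at 0.22 without passing. With gene length offsets 1 gene of this cascade was called higher.

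Of 11 genes whose proteins GADD45 proteins bind or meet in repair and demethylation complexes, 3 were called higher, 1 lower and 7 not at all, a share of 36.4% called against 34.6% of all genes tested, with a median log2 fold change of 0.065. Without control replicate 3, 2 were called lower. CDKN1A, the cell cycle inhibitor p21, which shares PCNA as a partner with GADD45A, was the 1 gene past the fold limit and rose from 6.13, 5.66 and 6.64 to 11.3, 11.9 and 11.7 CPM, a log2 fold change of 0.92. ING1, a chromatin reader that recruits GADD45A, rose by 0.33 and CDK1 by 0.091 on the log2 scale. CDK1 was not called in DESeq2 (adjusted p = 0.0573) or without any 1 of control replicates 2 and 3 and SMIP34 replicates 1 and 2 (edgeR adjusted p up to 0.116). NPM1, the nucleolar protein nucleophosmin, was lower at -0.09, a call lost with gene length offsets (edgeR adjusted p = 0.132). PCNA (-0.026) and CCNB1 (0.066) did not pass, and TET1 (-0.32) was at under 0.6 CPM in every library.

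Among 13 transcription regulators known to act on GADD45 genes, 6 were called higher, 1 lower and 6 not at all, with a median log2 fold change of 0.17. Genes called higher made up 46.2% of this list and 17.4% of the whole set, and genes called lower 7.69% and 17.2%. The list was chosen with earlier results known, and the difference between these shares was not tested. The genes that rose were POU2F1 (0.35), which acts on GADD45A, NFKB1 (0.23) and RELA (0.18), the NF-kB subunits that act on GADD45B, FOXO3 (0.23), EGR1 (0.21) and SMAD3 (0.17), which carries the TGF-beta signal. None passed the fold limit. NFYC, an NF-Y subunit, was lower at -0.13, a call lost in DESeq2 (adjusted p = 0.119) and without any 1 of the libraries except control replicate 2 (edgeR adjusted p up to 0.17), and the lowest after it, FOXO1, was at -0.096 without passing. FOXO1 was called lower without control replicate 1 (-0.16) and with gene length offsets (-0.15), each at an edgeR adjusted p of 0.0258. Without the filter on low counts, with library sizes alone or with the replicate number as a block no gene of this list was lower.

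**Figure D5:**
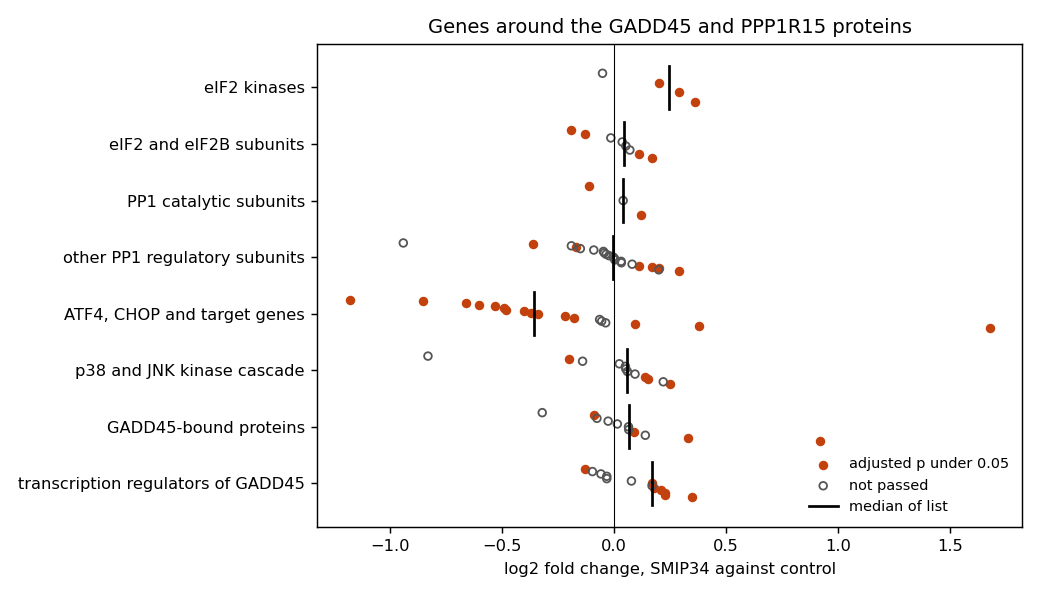
Log2 fold change with SMIP34 (horizontal axis) of each tested gene in 8 lists around the GADD45 and PPP1R15 proteins, with filled points for called genes, open points for the rest and a black line at the median of each list. The ATF4 and CHOP list has its median at -0.36, and those of the other lists lie between -0.0027 and 0.24.

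The genes whose pattern was most like that of each member were sought among 9906 other genes of 10 CPM or more on average, by the Euclidean distance between the 6 log2 CPM values after each gene was centred on its control mean. A small distance means a like size of the difference and a like spread between libraries. GADD45B was nearest to ATF3 (distance 0.22), then to TNFAIP3 (0.3) and JUN (0.47), with log2 fold changes of 1.68, 1.51 and 1.37. PPP1R15A was nearest to IFIT2 (0.13), NFKBIA (0.14) and MT1X (0.17), with log2 fold changes of 0.99, 0.85 and 0.96. GADD45A had closer neighbours, TRAFD1 (0.058), FAM48A (0.06) and RAPGEF6 (0.063), as did PPP1R15B with CEP55 (0.022) and IDH3A (0.026), and small differences such as theirs are common among all genes. GADD45G had no gene nearer than RSAD2 at 0.58, followed by ZC3H12A (0.63) and BIRC3 (0.66). The libraries of GADD45G were widely spread, and the reason for these larger distances was not tested. In 6 libraries of 2 groups this likeness is mostly that of 1 difference, and it is given as a description.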

How the data were processed

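RNA-seq libraries of 3 control and 3 SMIP34-treated HEC-1-A samples were grouped by their treatment labels, and none was left out. The deposited values are estimated counts: per the file headers, featureCounts 1.5.0-p1 summed reads over the exons of each UCSC hg19 gene, strand-specifically, with a mapping quality of at least 2, and the authors divided reads of several places or genes into fractions, without normalization. The submitters' notes name HISAT2, and the methods name tophat2, HTSeq and DESeq2. The labels name library kits of different makers.

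Counts were rounded, filtered with filterByExpr (13408 genes left), scaled by TMM and tested with edgeR 4.0.16 (quasi-likelihood, newer method) in R 4.3.3. P-values were adjusted (Benjamini-Hochberg) across the whole table. Called genes have an adjusted p under 0.05, and the fold limit is an absolute log2 fold change over 0.5. Log2 CPM have a prior count of 2. Fold changes are unshrunk, and standard errors come from the F statistic.

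The members and gene lists were chosen with earlier results of these data known. Named were the members, list genes past both limits, the 2 highest and lowest of a list, neighbours, the 3 nearest genes by pattern (1 of them is not reported here) and PELP1. Other list genes were named after their values were seen. Alternatives were DESeq2 1.42.0, voom (limma 3.58.1), the legacy quasi-likelihood method, RLE factors, library size only, offsets from a loess fit (span 0.3) on gene length, no low-count filter, unrounded counts, a replicate block, and each library left out. The procedure was tested on simulated data. Depth was 19562711 to 22014835 counts. Libraries of one group differed by a chi-square per gene of 1.89 to 3.27, so none was a duplicate. Figures were drawn with matplotlib 3.10.9.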

Additional observations from a re-analysis of the deposited data

How the results depend on the processing

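The log2 fold changes of GADD45A, GADD45B, GADD45G, PPP1R15A and PPP1R15B stayed above 0 in all 15 alternatives, with ranges of 0.18 to 0.29, 1.63 to 1.71, 1.05 to 1.48, 0.90 to 0.95 and 0.14 to 0.21. By more than the replicate SD, gene length offsets moved GADD45A to 0.29, GADD45B to 1.71, PPP1R15A to 0.95, PPP1R15B to 0.14 and the PPP1R15A minus PPP1R15B difference to 0.81, and library size only moved GADD45B to 1.66 and the control mean of PPP1R15A to 131 CPM. The control spread was below counting error for GADD45B (1.03% against 5.16%) and PPP1R15A (0.63% against 1.92%). A move past such an SD can therefore be very small. No called gene changed sign, but 8 named genes that were not called did in at least 1 alternative (DIRAS2, NUCB1, PLEKHA4, SEMA4D, SERBP1, PPP1CB, PPP1R10 and TET1). For counts of list genes called, gene length offsets gave 1 lower eIF2 kinase, 1 lower eIF2 or eIF2B subunit, 0 lower catalytic subunits, 4 lower PP1 regulatory subunits, 1 higher gene of the p38 and JNK cascade, 0 lower GADD45-bound genes and 3 lower transcription regulators. DESeq2 gave 1 higher and 1 lower eIF2 or eIF2B subunit, 0 lower cascade genes and 0 lower regulators, and voom 2 lower cascade genes. The legacy method, library size only and no filter each gave 0 lower regulators, and no filter gave 1 higher eIF2 or eIF2B subunit. With single libraries left out, the eIF2 and eIF2B counts were 1 to 2 higher and 1 to 2 lower, PP1 regulatory subunits 2 to 4 higher, cascade genes 0 to 1 lower, GADD45-bound genes 2 to 4 higher and 1 to 2 lower, and regulators 0 to 1 lower. The replicate block gave 1 higher eIF2 or eIF2B subunit, 0 lower regulators and a call of PPP1R10 (-0.91, adjusted p = 0.0404), and the deviations of same-numbered libraries had correlations of -0.028, 0.0334 and -0.0111, so same numbers were not treated as pairs, nor did every library correlate best with its own number. The cause was not tested for any of these shifts. Depth limits GADD45G, with 13 to 53 counts.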
